A study of Homo sapiens with 4 samples.

Results

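Surface proteins by which hematopoietic stem and progenitor cells are recognised were examined in K562 cells carrying the fusion gene RUNX1::ERG. The 10 genes were KIT, CD34, CD38, CD44, PROM1, THY1, FLT3, CD33, CD69 and PROCR. They were taken by symbol from the 25702 genes of the count tables. The rule names no measured value, but these genes and the lists set beside them were chosen with earlier results of these data known. K562 is an established human cell line of erythroid and megakaryocytic character, derived from a chronic myeloid leukemia in blast crisis. One group received RUNX1::ERG in the LeGO-iG2 plasmid by transfection, the other the same plasmid without an insert, and the labels give no further treatment to either. Each group had 2 replicates, and RNA enriched for poly(A) tails was sequenced. LeGO-iG2 is a lentiviral vector in which a viral promoter drives the insert together with green fluorescent protein. The transfer was transient, and no sorting of green cells is described for these RNA samples, so untransfected cells may be part of both groups.

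Most of these proteins are known as flags for isolating immature blood cells. CD34 marks stem and progenitor cells, CD38 is gained as they mature, and THY1 (CD90) and PROM1 (CD133) mark the most primitive fraction, whereas PROCR (the endothelial protein C receptor) is found on stem cells that repopulate marrow. KIT and FLT3 are receptor tyrosine kinases that bind stem cell factor and FLT3 ligand. CD44 is the receptor for hyaluronan that anchors cells in the marrow, CD69 is an early activation antigen of the C-type lectin family, and CD33 is a sialic acid-binding lectin of myeloid cells that serves as a drug target in acute myeloid leukemia. RUNX1 and ERG, the parts of the fusion, are both transcription factors of blood stem cells and bind DNA through a Runt and an Ets domain.

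Of the 10 genes, PROCR rose and CD33 fell with RUNX1::ERG. PROCR was 2.08-fold higher and CD33 was 4.07-fold lower. CD44 and CD69 lay above both empty vector libraries in both RUNX1::ERG libraries without passing the threshold, KIT overlapped between the groups, and THY1 had counts in the RUNX1::ERG libraries alone, at a level close to the detection limit. CD34, CD38, PROM1 and FLT3 had at most 8 counts in any library, so these genes were scarcely detected in either group.

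Because RUNX1::ERG keeps both DNA-binding domains, the promoters of the genes that changed are shown with the letters that Ets, Runt and GATA factors are known to bind. RefSeq promoter windows of GRCh38.p14 matched 8 of the 10 genes, with 11 windows in all, and the 250 bases before each start were searched on both strands. The Ets letters were AGGAAG, or with another first base CGGAAG. For Runt factors the search used TGTGGT together with the variant TGCGGT, and for GATA factors it used AGATAA as well as the sister form TGATAA. CD33, the gene that fell, and PROCR, the gene that rose, are printed 5′ to 3′ in the direction of transcription. Capitals mark the Ets letters, which read CTTCCT where the match is on the minus strand.
CD33 (chr19:51224830-51225079, plus strand): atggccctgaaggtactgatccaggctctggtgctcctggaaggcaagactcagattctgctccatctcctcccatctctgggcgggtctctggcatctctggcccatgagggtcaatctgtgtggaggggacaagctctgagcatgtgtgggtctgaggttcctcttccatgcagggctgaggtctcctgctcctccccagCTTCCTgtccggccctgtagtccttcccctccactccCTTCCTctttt
PROCR (chr20:35171822-35172071, plus strand): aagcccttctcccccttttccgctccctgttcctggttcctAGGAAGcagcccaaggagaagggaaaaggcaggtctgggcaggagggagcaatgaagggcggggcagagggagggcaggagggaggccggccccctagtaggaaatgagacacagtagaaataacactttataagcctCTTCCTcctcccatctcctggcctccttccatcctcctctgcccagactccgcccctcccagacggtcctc
The CD33 window held 2 matches to AGGAAG, both on the minus strand, at 48 to 43 and at 11 to 6 bases before the start. PROCR also held 2, on the plus strand at 209 to 204 and on the minus strand at 71 to 66 bases before the start. CD44 held 1 match to CGGAAG, 1 of the 4 PROM1 windows held 1 match to AGGAAG, and FLT3 held 1 match to TGCGGT, the only Runt match. KIT, CD34 and CD38 held none of the letters, and no GATA match was found in any of the 11 windows. No match overlapped another. Of all 35116 promoter windows, 40.8% held an Ets match, 12.1% held at least 2, 16.3% held a Runt match and 14.6% a GATA match. The gene that rose and the gene that fell thus carried the same number of Ets letters.

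Library totals ranged from 59695387 to 82352144 counts, and 3 counts, the limit that a count of 0 leaves, correspond to 0.0364 to 0.0503 CPM (each count as a share of its library total, times 1e6) depending on the library. Of the counts from 1 to 10, 66.7% to 68.9% were even, as when both mates of a pair are counted, so this limit is too low where mates were counted separately. It covers counting error only. Counts on ERG, a part of the fusion, were 4 in both empty vector libraries against 80443 and 27218 in the RUNX1::ERG libraries, as labelled. In CPM, ERG was 2.52 times as high in RUNX1::ERG replicate 1 as in replicate 2. All 11 K562 identity genes analysed, among them GATA1, KLF1 and the embryonic and fetal globins, passed the filter on low counts. Their summed level was 12237 and 12907 normalized CPM with the empty vector and 14555 and 13377 with RUNX1::ERG. HBE1 held the largest part, with 6616 and 6393 against 8410 and 7316. HBZ (966 and 1100 against 753 and 615) and LYL1 lay lower in both RUNX1::ERG libraries. HBE1, HBG1, HBG2, TAL1 and EPOR lay higher in both, and the others overlapped. In the test described below, TAL1 and EPOR were called higher and none of the 11 lower. HBZ narrowly missed the threshold there (log2 fold change -0.59, edgeR adjusted p = 0.05). With DESeq2 size factors, halved counts, limma voom or DESeq2's Wald test, 1 of the 11 was called lower. With the replicate number as a block, 4 were called higher and 2 lower. With library totals alone or at least 10 counts in every library, none was called lower.

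Normalized CPM (CPM with library totals scaled by edgeR's TMM method) is used throughout, and values are given for replicate 1 and then replicate 2. The 15394 genes kept by the filter were tested together by edgeR's quasi-likelihood test, and adjusted p-values are Benjamini-Hochberg values over all of them (SE, standard error). The percentage of genes called was 4.79%, with 3.64% higher and 1.15% lower, and the median log2 fold change of all genes tested was 0.00. Of the members, 6 passed the filter, 1 was called higher and 1 lower. The RUNX1::ERG libraries both lay above the empty vector pair in 25.1% of the genes tested and both below it in 22.1%. The corresponding counts among the 6 members tested were 4 and 1. A member that reached the filter through its RUNX1::ERG libraries alone, as THY1 did, could only differ in 1 direction. With 2 libraries against 2, the smallest p of an exact permutation test (two-sided) is 0.333, so the p-values rest on the spread estimated across genes. In bulk RNA, a change in the number of cells with a transcript and a change in its amount per cell cannot be told apart.

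**Figure D1:**
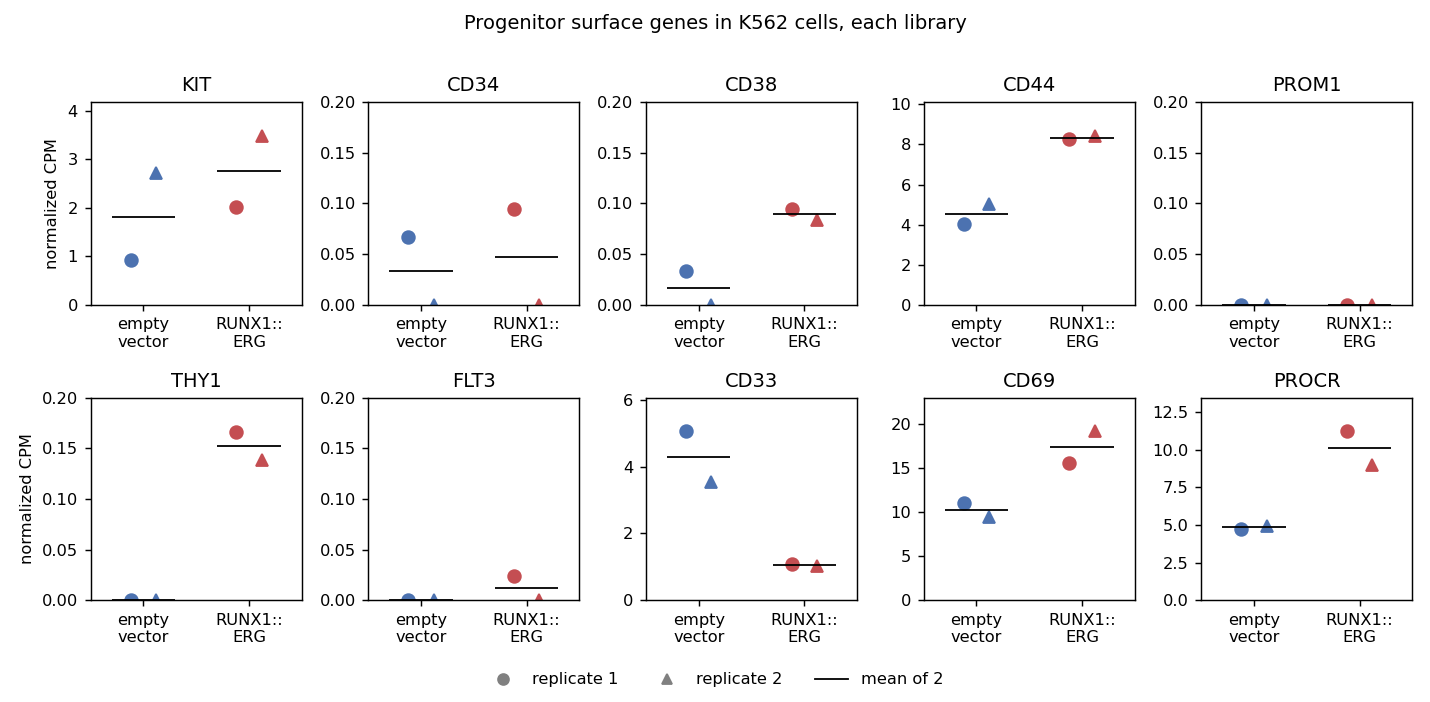
Normalized CPM (vertical axes, a separate linear scale in each panel) of the 10 progenitor surface genes in the 4 libraries, with circles for replicate 1, triangles for replicate 2 and a line at the mean of each group of 2. PROCR, CD44 and CD69 lay higher and CD33 lower in both RUNX1::ERG libraries, KIT overlapped, and the panels of CD34, CD38, PROM1, THY1 and FLT3 end at 0.2 CPM.

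PROCR binds protein C on the cell surface and speeds its activation by thrombin held on thrombomodulin. It had 286 and 348 counts with the empty vector and 941 and 646 with RUNX1::ERG, or 4.75 and 4.93 against 11.2 and 8.98 normalized CPM. The groups did not overlap, and the empty vector libraries were closer to each other than the RUNX1::ERG libraries were. The group mean was 4.84 ± 0.132 and rose to 10.1 ± 1.54 (SD, n = 2), and the log2 fold change was 1.06 (SE 0.24, edgeR adjusted p = 0.035). The call was lost without RUNX1::ERG replicate 1, the library with more fusion transcript, where the log2 fold change was 0.89 and the adjusted p 0.28 in edgeR. The gene lies on chromosome 20 of GRCh37 (33759875 to 33804043, plus strand) and overlaps antisense genes. Its neighbours EDEM2 and MMP24, 24.7 and 10.4 kb away, had log2 fold changes of -0.13 and -0.17.

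Ligands and partners of the 10 genes formed a list of 19, of which 13 passed the filter, 3 were called higher and none lower (median log2 fold change 0.25). Without empty vector replicate 2, 5 were called. Of the 3 calls, F2R and PROS1 act with protein C, and the third was PECAM1. F2R, the thrombin receptor PAR-1 that activated protein C also cleaves when held by PROCR, had 1829 and 2543 counts with the empty vector and 7408 and 7037 with RUNX1::ERG. It rose by a log2 fold change of 1.48 (SE 0.17, edgeR adjusted p = 0.00076). PROS1, protein S, the cofactor of activated protein C, had 4155 and 5078 counts against 10945 and 10133 and rose by 0.94 (SE 0.15, edgeR adjusted p = 0.0066). Thrombomodulin (THBD), which presents thrombin to protein C, had 124 and 184 counts against 473 and 311, a log2 fold change of 1.09 that did not pass (edgeR adjusted p = 0.071), though it did by DESeq2 (1.07, adjusted p = 0.019). F2R, PROS1 and THBD lay above the empty vector in both RUNX1::ERG libraries. Protein C itself (PROC), a plasma protein made in liver, was under the filter with 0, 2, 6 and 3 counts.

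CD33 carries inhibitory motifs in its cytoplasmic tail and binds sialic acid. It had 304 and 250 counts with the empty vector and 92 and 73 with RUNX1::ERG, or 5.05 and 3.54 against 1.09 and 1.02 normalized CPM. Both RUNX1::ERG libraries lay far below both empty vector libraries and close to each other. The mean fell from 4.3 ± 1.06 to 1.05 ± 0.0536 (SD, n = 2), with a log2 fold change of -2.02 (SE 0.34, edgeR adjusted p = 0.0074). The gene is on the plus strand of chromosome 19 (51728320 to 51747115, GRCh37) in a cluster of related lectins. Its neighbours SIGLEC7, with 4, 2, 2 and 4 counts, and SIGLECL1, with at most 2, were too low to test.

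No other sialic acid-binding lectin (Siglec) was called lower. Of the 15 genes in the family, 8 passed the filter, CD33 was the single call downward, and 2 others were called higher. The median log2 fold change over the 8 was 0.27. SIGLEC6 had 36 and 37 counts with the empty vector and 428 and 355 with RUNX1::ERG, and it rose by a log2 fold change of 3.16 (SE 0.33, edgeR adjusted p = 0.00049). SIGLEC8, a receptor of eosinophils and mast cells, had 36 and 61 counts against 169 and 193 and rose by 1.67 (SE 0.39, edgeR adjusted p = 0.038). The Siglecs are closely related in sequence and some reads may be shared between them, so counts of single members are less certain than those of unique genes. SIGLEC9 and SIGLEC10 lay lower in both RUNX1::ERG libraries without a call, with 13 and 18 counts against 11 and 8 (-0.95, edgeR adjusted p = 0.54) and 243 and 200 against 205 and 182 (-0.47, edgeR adjusted p = 0.5). SIGLEC8 was not called without RUNX1::ERG replicate 1 (1.87, edgeR adjusted p = 0.1) or without replicate 2 (1.43, edgeR adjusted p = 0.19).

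CD33 is used as a myeloid marker, and genes of monocytes and granulocytes were counted for comparison. Of 16 such markers, 11 passed the filter, and 5 were called higher and none lower (median log2 fold change 0.73). These were CD14, the lipopolysaccharide co-receptor (3.24), the integrin ITGAX (3.32), the G-CSF receptor CSF3R (2.32), the lysosomal protein CD68 (0.73) and lysozyme, LYZ (1.12). The summed level of the 16 was 65.7 and 72.3 normalized CPM with the empty vector and 131 and 112 with RUNX1::ERG. CD163 and CEACAM8, which define macrophages and granulocytes, were at 0 in every library, and MPO had 19, 4, 14 and 2 counts. Without RUNX1::ERG replicate 1, CD14 alone was called, ITGAX and CSF3R being at 2.37 and 1.35 (edgeR adjusted p = 0.25 and 0.57) and CD68 and LYZ at 0.63 and 1.15 (0.17 and 0.071), and CD68 was also lost without empty vector replicate 1 (0.66, edgeR adjusted p = 0.061). Leaving out empty vector replicate 1 or 2 put ITGAX at 4.45 or 2.66, and leaving out replicate 2 put CD14 at 3.99. Other markers of the list were lower with RUNX1::ERG in both libraries, as CD33 was. FCGR3B had 62 and 42 counts against 35 and 13 (log2 fold change -1.43, edgeR adjusted p = 0.22), and FCGR3A had 42 and 10 against 8 and 3 and was under the filter. By contrast, ITGAX (15 and 5 counts against 197 and 59) and FCGR1A (7 and 8 against 22 and 13) needed their RUNX1::ERG libraries to pass the filter. The upward calls and the median of the list rest in part on these genes. ITGAM and MPO overlapped between the groups, with log2 fold changes of -0.99 and -0.86 that were not called. CD68 held most of the sum, with 54.6 and 60.2 against 102 and 89.1 normalized CPM. The part of these markers in the CD33 result was not tested.

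CD44 had 242 and 354 counts with the empty vector and 696 and 606 with RUNX1::ERG, or 4.02 and 5.02 against 8.25 and 8.43 normalized CPM. The groups did not overlap. The means were 4.52 ± 0.708 and 8.34 ± 0.123 (SD, n = 2), with a log2 fold change of 0.88 (SE 0.25, edgeR adjusted p = 0.076), which missed the threshold. DESeq2's Wald test put it past the threshold (0.87, adjusted p = 0.02). CD44 lies on the plus strand of chromosome 11 (35160429 to 35253949, GRCh37) and overlaps the antisense gene CD44-DT.

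Receptors with a link domain, the fold that holds hyaluronan, formed a list of 4 genes that includes CD44 itself. All 4 passed the filter, and 2 were called. LYVE1, the hyaluronan receptor of lymphatic vessels, had 14 and 44 counts with the empty vector and 146 and 133 with RUNX1::ERG, a rise by a log2 fold change of 2.05 (SE 0.50, edgeR adjusted p = 0.044). STAB1, a scavenger receptor of sinusoidal endothelium and macrophages, had 258 and 264 counts against 1130 and 689 and rose by 1.52 (SE 0.26, edgeR adjusted p = 0.0088). STAB2 had 24, 32, 18 and 43 counts, and its groups overlapped. The median of the 4 genes was 1.20. Without empty vector replicate 2 LYVE1 was at 2.93. Without RUNX1::ERG replicate 1 neither call remained, with values of 2.09 for LYVE1 and 1.26 for STAB1 (edgeR adjusted p = 0.14 and 0.094), and LYVE1 was also lost without replicate 2 (1.98, edgeR adjusted p = 0.062). Ezrin (EZR), radixin (RDX) and moesin (MSN), which tie the CD44 tail to actin, had log2 fold changes of 0.22, 0.07 and 0.11 and were not called. Among the hyaluronan synthases, HAS1 and HAS3 were not called, and HAS2 had 2 counts in all.

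CD69 had the highest level per transcript length of the 10 genes. It had 664 and 667 counts with the empty vector and 1303 and 1373 with RUNX1::ERG, or 11 and 9.46 against 15.5 and 19.1 normalized CPM, without overlap. The means were 10.2 ± 1.11 and 17.3 ± 2.58 (SD, n = 2), and the log2 fold change of 0.75 (SE 0.22, edgeR adjusted p = 0.078) missed the threshold. As for CD44, DESeq2's Wald test called it (0.74, adjusted p = 0.021). CD69 is on the minus strand of chromosome 12 (9905082 to 9913497, GRCh37), among the lectin genes of the natural killer complex.

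Of the 13 lectin genes of this complex, 6 passed the filter (median log2 fold change 0.98), and 1 was called. The 6 include CD69 itself. They also include CLEC9A, which had 0, 0, 16 and 10 counts and was not called (edgeR adjusted p = 0.058). It reached the filter through its RUNX1::ERG libraries alone and could only rise. CLEC7A, with 7, 3, 17 and 14 counts, was also near the floor. The median rests in part on these genes. CLEC2B, which encodes a ligand of the receptor KLRF1, had 293 and 352 counts with the empty vector and 874 and 879 with RUNX1::ERG and rose by a log2 fold change of 1.20 (SE 0.24, edgeR adjusted p = 0.017). The direct neighbours of CD69, CLEC2D at 52.9 kb and KLRF1 at 66.6 kb, had log2 fold changes of 0.06 and 0.45, and their groups overlapped. CLEC2B missed the threshold narrowly without RUNX1::ERG replicate 1 (1.31, edgeR adjusted p = 0.052) and without replicate 2 (1.06, edgeR adjusted p = 0.07).

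**Figure D2:**
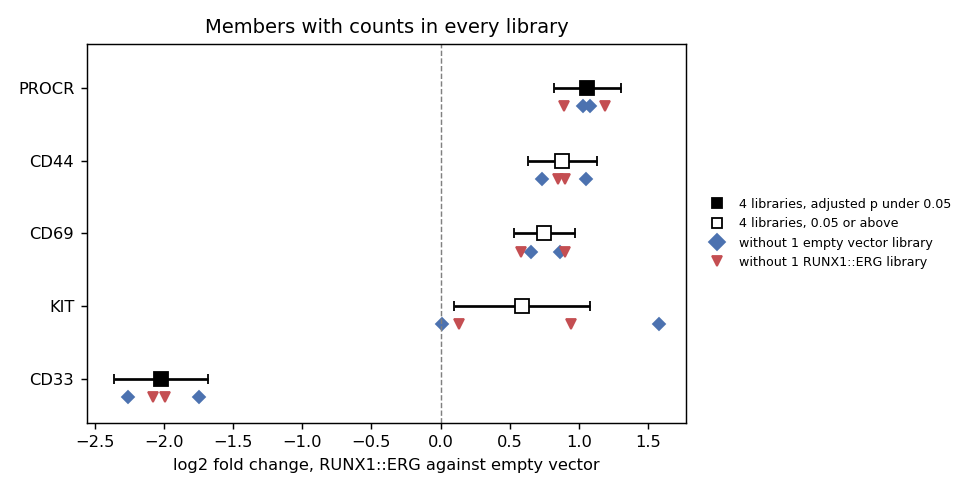
Log2 fold change (horizontal axis, RUNX1::ERG against empty vector, edgeR) of the 5 members with counts in every library. Squares with bars are the value from 4 libraries and its standard error, filled where the adjusted p was under 0.05, and the smaller symbols are the values with 1 library left out. PROCR, CD44 and CD69 stayed above 0 and CD33 below it in each of these fits, whereas KIT ran from 0.01 to 1.58.

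KIT, the receptor of stem cell factor, had 55 and 191 counts with the empty vector and 170 and 250 with RUNX1::ERG. In normalized CPM these were 0.913 and 2.71 against 2.02 and 3.48, so the groups overlapped and the empty vector libraries differed from each other 2.97-fold. The means were 1.81 ± 1.27 and 2.75 ± 1.03 (SD, n = 2), with a log2 fold change of 0.59 (SE 0.49, edgeR adjusted p = 0.59). A difference in KIT was therefore not detectable beyond the spread between replicates. Its value depended on which empty vector library was used: the log2 fold change was 0.01 without replicate 1 and 1.58 without replicate 2 (edgeR adjusted p = 0.0081). KIT lies on the plus strand of chromosome 4 (55523434 to 55606949, GRCh37), and its neighbours PDGFRA and KDR had at most 2 counts in any library.

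FLT3, the other growth factor receptor of the group, had 0 counts in 3 libraries and 2 in RUNX1::ERG replicate 1. It lies on the minus strand of chromosome 13 (28577411 to 28674729, GRCh37). Among the 5 class III receptor kinases to which KIT and FLT3 belong, 2 passed the filter (KIT and PDGFRB) and none was called. CSF1R, the receptor of M-CSF, was under the filter with 3, 3, 18 and 4 counts. Neither ligand was called. FLT3LG had a log2 fold change of 0.25 with overlapping groups, and KITLG was under the filter with 2, 14, 2 and 4 counts.

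All 27 genes of the list of components that carry the signal of KIT and FLT3 inside the cell passed the filter. Of these, 25 had a higher mean level per kb than KIT in each group, the exceptions being SH2B2 and INPP5D. In the comparison 2 were called, both higher, and the median log2 fold change of the 27 was 0.09. SRC, a tyrosine kinase at the membrane, had 711 and 667 counts with the empty vector and 6893 and 4536 with RUNX1::ERG, a rise by a log2 fold change of 2.77 (SE 0.21, edgeR adjusted p = 5.8e-05). CBLB, a ubiquitin ligase that takes part in turnover of activated receptors, had 574 and 640 counts against 1450 and 1515 and rose by 1.04 (SE 0.21, edgeR adjusted p = 0.02). The kinase LYN, the phosphatase PTPN11 and the adaptor GRB2 had log2 fold changes of -0.22, -0.12 and 0.09. STAT5A and STAT5B had 0.43 and 0.01, and none of the 5 was called. GRB10 lay lower in both RUNX1::ERG libraries (174 and 98.8 against 66 and 79 normalized CPM) but was not called (-0.91, edgeR adjusted p = 0.058). INPP5D (1.05), PIK3R1 (0.64), PTPN6 (0.60), SHC1 (0.45) and FYN (0.41) lay higher in both, also without a call. CBLB was not called without RUNX1::ERG replicate 2 (0.87, edgeR adjusted p = 0.092). With the replicate number as a block 6 of the list were called higher and 1 lower, STAT5A among the higher (edgeR adjusted p = 0.029), and without empty vector replicate 2 the numbers were 2 and 2.

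THY1, a glycoprotein held in the membrane by a lipid anchor, had 0 counts in both empty vector libraries and 14 and 10 in the RUNX1::ERG libraries, or 0.166 and 0.139 normalized CPM. Its mean with RUNX1::ERG was at least 3.3-fold higher, taking 3 counts in each empty vector library as the limit of a count of 0. The bound is lower where both mates of a pair were counted. The edgeR adjusted p was 0.063, and limma voom called it (adjusted p = 0.014), while DESeq2 gave no adjusted p. THY1 lies on the minus strand of chromosome 11 (119286186 to 119295695, GRCh37) and overlaps the antisense gene USP2-AS1, so these few reads cannot be assigned with certainty. Its neighbour USP2 had a log2 fold change of 0.46 and was not called.

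CD34, the marker by which stem and progenitor cells are usually sorted, had 4 and 0 counts with the empty vector and 8 and 0 with RUNX1::ERG. Each group thus had 1 library at 0. CD34 lies on the minus strand of chromosome 1 (208054317 to 208084747, GRCh37). Its relatives PODXL and PODXL2, sialomucins of the same family, passed the filter without a call. PODXL2 had 2951 and 3601 counts against 2965 and 2158, a log2 fold change of -0.62 (edgeR adjusted p = 0.072), which passed by DESeq2 (-0.63, adjusted p = 0.019). The neighbour PLXNA2, a semaphorin receptor 110.8 kb from CD34, had 104 and 111 counts against 603 and 394 and rose by a log2 fold change of 1.94 (SE 0.30, edgeR adjusted p = 0.0047), the single call among the 12 neighbours of the 10 genes that could be tested. Without RUNX1::ERG replicate 1 its value was 1.73 (edgeR adjusted p = 0.051). CD46, on the other side of CD34, was at -0.03.

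CD38, an enzyme that consumes NAD on the cell surface, had 2 and 0 counts with the empty vector and 8 and 6 with RUNX1::ERG, all at or under a level too low to test. CD38 and its relative BST1, with 3, 6, 0 and 2 counts, lie 40.0 kb apart on chromosome 4 (CD38 at 15779898 to 15854855 on the plus strand, GRCh37). PECAM1 (CD31), the ligand of CD38 on other cells, had 192 and 210 counts with the empty vector and 1964 and 1780 with RUNX1::ERG. It rose by a log2 fold change of 2.96 (SE 0.22, edgeR adjusted p = 5.8e-05). PROM1, a protein of membrane protrusions, was at 0 in all 4 libraries, and PROM2, the other prominin, had 2, 0, 16 and 4 counts. PROM1 lies on the minus strand of chromosome 4 (15964699 to 16086001, GRCh37) and overlaps FGFBP2. For CD38, BST1, PROM1 and PROM2, all under the filter, a difference was not detectable at this depth.

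**Figure D3:**
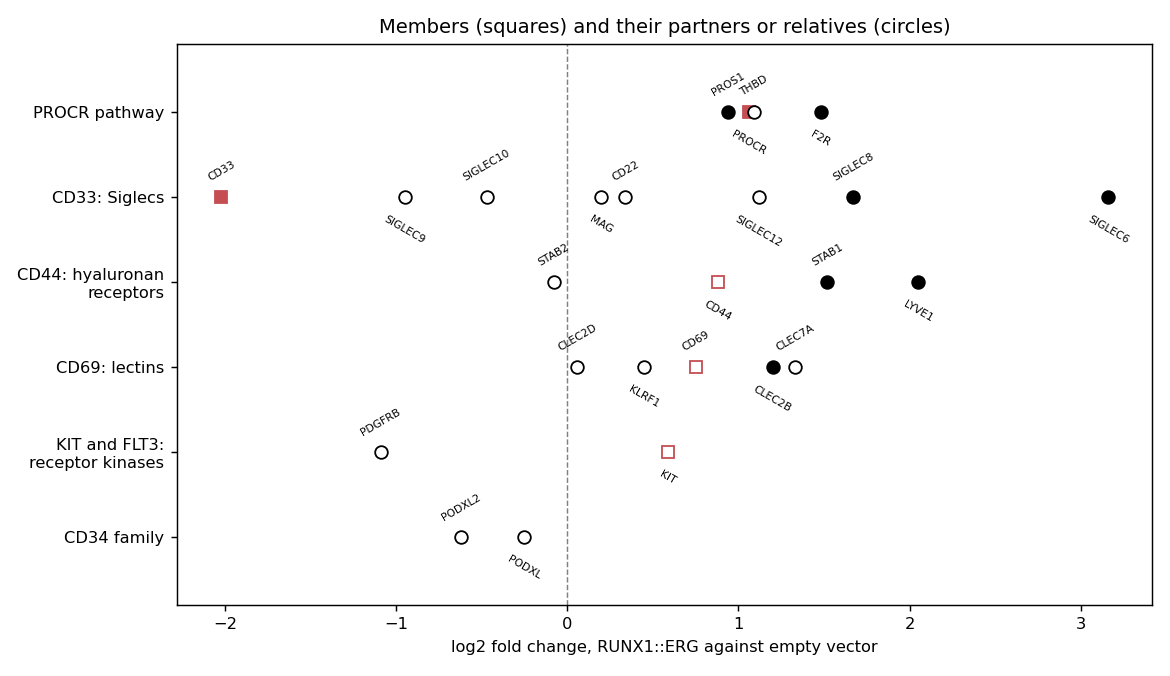
Log2 fold change (horizontal axis, RUNX1::ERG against empty vector, edgeR) of members (red squares) and of partners or relatives that passed the filter (black circles). Symbols are filled where the adjusted p was under 0.05. CLEC9A, at 6.58 with 0 counts in both empty vector libraries, passed the filter but is left out of the lectin row. The PROCR row was set to PROCR, THBD, F2R and PROS1. These partners were picked from the 19 ligands and partners, whose tested genes had a median of 0.25, so the row is not a full list. CD33 lay at -2.02 with SIGLEC8 and SIGLEC6 at 1.67 and 3.16, and all 4 genes of the PROCR row lay between 0.94 and 1.48.

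To compare the genes with each other, normalized CPM was divided by the length of the canonical transcript in kb. With the empty vector the mean levels per kb were 6.11 for CD69, 3.59 for PROCR, 2.94 for CD33, 0.832 for CD44 and 0.352 for KIT. PROCR (3.52 and 3.66 per kb) and CD33 (3.45 and 2.42) were not separated beyond the spread of CD33. With RUNX1::ERG the order of the mean levels was CD69 (10.3 per kb), PROCR (7.47), CD44 (1.54), CD33 (0.72) and KIT (0.534). CD33 thus passed from above CD44 to below it, and its libraries (0.746 and 0.694 per kb) were not separated from KIT (0.392 and 0.676) beyond the spread of KIT. THY1, CD38, CD34 and FLT3 were at 0.0339 per kb or less in both groups. These levels assume that the canonical transcript is the one expressed.

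**Figure D4:**
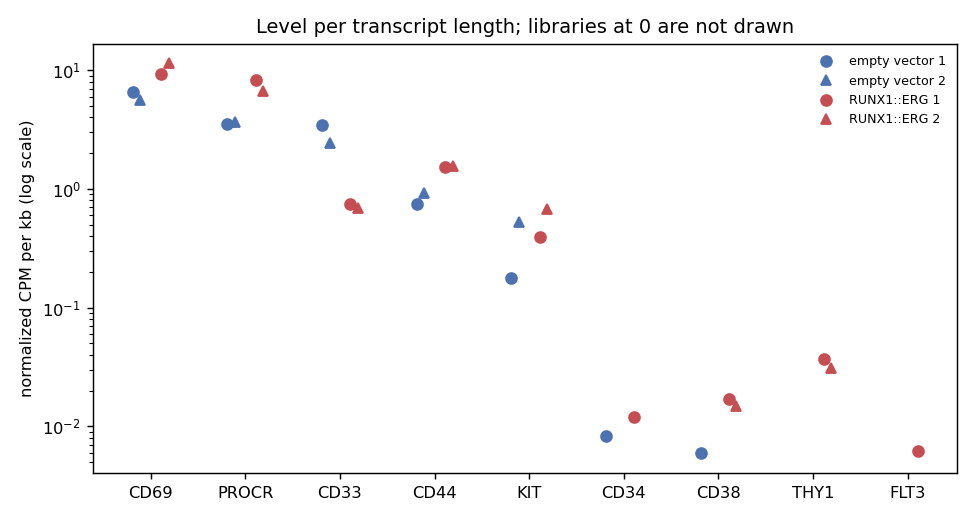
Normalized CPM per kb of canonical transcript (vertical axis, log scale) of 9 of the 10 genes in each library, with libraries at 0 and PROM1, which was at 0 throughout, not drawn. CD69 and PROCR were the highest in both groups, CD33 dropped from the level of PROCR to that of KIT, and CD34, CD38, THY1 and FLT3 stayed more than 10-fold below KIT in RUNX1::ERG.

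The RUNX1::ERG libraries differed in fusion transcript, and their ratios (replicate 1 over replicate 2, in normalized CPM) are set beside the ERG ratio of 2.52. The ratio was 1.24 for PROCR, 1.19 for THY1, 1.07 for CD33, 0.979 for CD44, 0.809 for CD69 and 0.58 for KIT. PROCR was higher in the library with more fusion transcript, whereas CD69 and KIT were lower there. With 1 library at each level this is a description.

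Genes with the pattern most like PROCR and CD33 over the 4 libraries were sought among 9137 genes with a mean of at least 10 CPM, by the Euclidean distance of centred log2 values. For PROCR these were SH3BGRL3 (distance 0.049), ARHGEF40 (0.063) and CCND3 (0.1), which rose by log2 fold changes of 1.09, 1.03 and 1.03. CCND3, a cyclin of the G1 phase, had 339 and 379 normalized CPM with the empty vector and 787 and 678 with RUNX1::ERG. For CD33 they were RCSD1 (0.23), IGFBP4 (0.43) and EPHB6 (0.51), which fell, with log2 fold changes of -1.94, -2.05 and -1.76. ARHGEF40 was not called without RUNX1::ERG replicate 1 (0.91, edgeR adjusted p = 0.11). RCSD1 had 105 and 74.1 normalized CPM against 21.6 and 25. The nearest genes to CD33 thus lay at larger distances than the nearest to PROCR. Because these genes were picked by distance over the same 4 libraries, their similar fold changes follow from the choice.

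Beyond the 10 genes, 36 other surface genes of stem and progenitor cells were listed. The filter kept 23 of them (median log2 fold change 0.58), of which 6 were called higher and none lower. The number called higher was 12 without the filter on low counts and 11 with the replicate block, each with 1 lower, 10 by DESeq2's Wald test and 10 without empty vector replicate 2. The adhesion receptor ADGRG1 (GPR56) had 40 and 48 counts with the empty vector and 1050 and 672 with RUNX1::ERG, a rise by a log2 fold change of 4.02 (SE 0.31, edgeR adjusted p = 5.8e-05). CD93, a lectin-like receptor of endothelial and early blood cells, had 30 and 26 counts against 435 and 308 and rose by 3.45 (SE 0.36, edgeR adjusted p = 0.00049). IL6R and CSF3R, receptors of interleukin-6 and G-CSF, rose by 2.28 and 2.32, and the tetraspanin CD82 rose by 1.62. CD47, the signal that protects cells from phagocytosis, had 2436 and 2995 counts against 8194 and 7419 and rose by 1.27 (SE 0.16, edgeR adjusted p = 0.0012). The sialomucin CD164 had a log2 fold change of 0.58 and did not pass (edgeR adjusted p = 0.051), but it passed with library totals alone (0.62, adjusted p = 0.033), with halved counts (0.58, 0.046), without the filter, with the block and by DESeq2 (0.56, 0.021). Without RUNX1::ERG replicate 1, 4 of the list were called, since IL6R and CSF3R (1.99 and 1.35, edgeR adjusted p = 0.12 and 0.57) missed the threshold. CD200, EMCN and CSF2RA were at 0 in all libraries.

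Markers of the lineages that K562 cells resemble, and of others, were counted in the same fit. Among 15 erythroid surface genes, which all passed the filter, the median log2 fold change was 0.33, with 3 called higher and none lower. The calls were the blood group genes RHCE (1.34) and RHD (0.71), which share much sequence, and the erythropoietin receptor EPOR (0.87). SLC4A1 (-0.59), GYPC (-0.40) and ICAM4 (-0.19) lay lower in both RUNX1::ERG libraries without a call. GYPB, KEL, RHAG, BCAM, ERMAP and XK lay higher in both without a call. TFRC (-0.57), CD36 (-0.20) and GYPE (-0.10) overlapped between the groups. Of 12 megakaryocytic surface genes 5 passed the filter, and ITGA2B and ITGB3, the chains of the platelet fibrinogen receptor, were called higher with log2 fold changes of 4.22 and 4.64. GP1BB, GP9, CLEC1B and TREML1 of the same list had at most 2 counts in any library. Of 10 endothelial markers 8 passed, and VWF (5.76) and FLT1 (1.47) were called higher. PLVAP lay lower in both RUNX1::ERG libraries (-0.74, edgeR adjusted p = 0.58), and TIE1 overlapped (-0.14). EGFL7, ESAM and CLDN5 lay higher in both without a call, as did CDH5, which passed the filter through its RUNX1::ERG libraries. VWF had 1 and 8 counts with the empty vector against 311 and 277. It too passed the filter through its RUNX1::ERG libraries and could only be called higher. Its log2 fold change was 5.03 without empty vector replicate 1 and 7.68 without replicate 2. The summed endothelial level was 135 and 163 normalized CPM with the empty vector and 330 and 204 with RUNX1::ERG, while TEK and KDR had at most 2 counts. EGFL7, which was not called (0.82, edgeR adjusted p = 0.065), made up nearly all of this sum with 131 and 158 against 318 and 192. Of 12 lymphoid markers 7 passed and GNLY was called higher (4.48). GNLY passed the filter through its RUNX1::ERG libraries, with 6 and 0 counts against 106 and 66, and was at 9.36 without empty vector replicate 1 and at 3.43 without replicate 2, so its fold is not fixed by these data. Their summed level was 37.8 and 38.9 normalized CPM with the empty vector and 29.2 and 30.2 with RUNX1::ERG, and MS4A1 was at 0. Most of this sum was CD3D (32.5 and 34.7 against 20.5 and 23.5), which was not called either (-0.61, edgeR adjusted p = 0.09). Without RUNX1::ERG replicate 1 the calls of EPOR (0.59, edgeR adjusted p = 0.25), RHD (0.68, 0.14), FLT1 (1.67, 0.074) and GNLY (4.23, 0.065) were lost, and FLT1 and RHD were also lost without replicate 2 (edgeR adjusted p = 0.14 and 0.065). The part of these markers in the values of PROCR, CD44 and CD69 was not tested.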

How the data were processed

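Whole transcriptome sequencing counts of 4 K562 libraries, 2 per group, were analysed. The authors deposited raw read counts per gene under NCBI gene numbers, 1 table per library, and the submitters' processing notes name HISAT2 2.2.1, featureCounts 2.0.1 and hg19. Annotation, strand setting and the treatment of read pairs are not given in the sources used here, so overlapping and antisense genes remain uncertain. Symbols came from RefSeq (GRCh38.p14, 92.2% of 25702 numbers matched), gene positions and transcript lengths from GENCODE on GRCh37, and promoter windows from RefSeq.

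Counts were fitted in R 4.3.3 with edgeR 4.0.16 (TMM scaling, filterByExpr, quasi-likelihood test, group alone, threshold 0.05 on the adjusted p). The standard error is the log2 fold change divided by the square root of F. Alternatives were DESeq2 1.42.0, limma 3.58.1 voom, other scalings and filters, halved counts, a replicate block and leaving out each library. Named genes were all members, genes of the lists past the threshold, the nearest coding gene on each side, and the 3 genes nearest in pattern to each called member. Further list genes under the threshold were named after their values were seen. One gene of the erythroid and K562 lists is not reported here and was left out of both. The members and lists were chosen with earlier results of these data known. The study gives the replicates as biological, and the labels add no culture or date.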

Additional observations from a re-analysis of the deposited data

How the results depend on the processing

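Against 1 member called higher in the main comparison, 3 were called without the filter on low counts, 3 with the replicate block and 3 by DESeq2's Wald test, in each case CD44, CD69 and PROCR. By limma voom 2 were called (PROCR and THY1). Leaving out 1 library gave 0 to 3 calls: 2 without empty vector replicate 1 (CD69 and PROCR), 3 without empty vector replicate 2 (CD44, KIT and PROCR) and 0 without RUNX1::ERG replicate 1. CD33 was called lower under each alternative, and its log2 fold change ran from -2.26 to -1.75 when 1 library was left out. Of 68 values of single members under the alternatives, 57 gave the same call in the same direction, 10 passed the threshold newly, 1 fell short of it (PROCR without RUNX1::ERG replicate 1) and 0 reversed. THY1 could not be fitted with at least 10 counts in every library, with halved counts or without either RUNX1::ERG replicate.

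Of 36 other genes called in the lists and comparisons, 19 kept the call under every alternative that could be fitted and 17 lost it under at least 1, with 0 reversals among 429 values. Only some of the named genes that were not called were followed through the alternatives. Of these, THBD, PODXL2 and CD164 gained a call without the filter, with the block and by DESeq2, and STAT5A with the block. The block also moved the calls of erythroid surface genes from 3 higher to 7 higher and 2 lower, and of megakaryocytic surface genes from 2 to 4. These checks were added after the data were seen. Genes near 0 that were not called changed sign. STAT5B was at -0.00 with DESeq2 size factors, without the filter and by DESeq2, and CD46 at 0.01 with library totals alone. When 1 library was left out, the extremes were -0.20 and 0.89 for FLT3LG, -0.19 and 0.29 for RDX, -0.31 and 0.04 for PTPN11, -0.17 and 0.21 for STAT5B, -0.37 and 0.05 for MMP24, -0.21 and 0.38 for CLEC2D, -0.25 and 0.92 for KLRF1 and -0.15 and 0.07 for CD46. The cause of these changes was not tested.

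The samples share only a replicate number, so the replicate block is an alternative. The difference between replicates 1 and 2 correlated between the groups at r = 0.27 over 15394 genes, and the block raised the number of genes called from 737 to 1733, against 1500 without the filter, 1204 by DESeq2, 1227 and 1336 without empty vector replicates 1 and 2, and 286 without RUNX1::ERG replicate 1. With 2 libraries per group, members that differed by 1.69-fold to 2.08-fold had adjusted p-values from edgeR of 0.035 to 0.078, on either side of the threshold.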

Other observations

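CD99, a surface glycoprotein raised on leukemic stem cells, had 62 and 63 counts with the empty vector and 1917 and 53 in RUNX1::ERG replicates 1 and 2. The high value stood in 1 library alone, and the gene was not called (adjusted p = 0.082 in edgeR's quasi-likelihood test). CXCR4, the chemokine receptor that holds progenitors in the marrow, had 13 and 17 counts against 4 and 0, below both empty vector libraries and not called (adjusted p = 0.13, edgeR). TFRC, the transferrin receptor, had 42691 and 89931 counts with the empty vector and 48095 and 54896 with RUNX1::ERG, so that, as for KIT, empty vector replicate 2 was the higher of the 2 control libraries. These 3 genes were chosen after their values were seen.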
